A study of Homo sapiens with 12 samples.

Results

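The small nucleolar RNAs (snoRNAs) and small Cajal body RNAs (scaRNAs) were described in MV4-11 cells, a human acute myeloid leukemia line that carries an internal tandem duplication of FLT3 and whose labelled genotype is wild-type. Members were selected on their measured levels: a gene counted when its symbol began with SNORA, SNORD or SCARNA and its FPKM (fragments scaled to gene length in kilobases and to library depth) was at least 1 in at least 3 of the 12 libraries. This rule kept 175 of 258 such genes, namely 85 SNORA, 77 SNORD and 13 SCARNA genes, out of 43876 genes in the table. Cells received DMSO, gilteritinib at 25 nM, mitoxantrone at 20 nM (so named in the labels, and called mitoxantrone-liposome by the study, hence Mito-Lipo below), or 20 nM of mitoxantrone with 20 nM of gilteritinib (Drug-combination in the labels, Com below), each for 24 h with 3 libraries. Gilteritinib was therefore at a lower dose in Com than alone. The labels number the libraries 1 to 3 in every condition and do not say what a number stands for. Nothing in the labels says that libraries came from separate cultures, so p-values measure the spread between these libraries, which may be technical.

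SnoRNAs are short non-coding RNAs that mostly lie in introns of host genes and are released when the intron is processed. Box C/D snoRNAs (SNORD) guide 2′-O-methylation of ribosomal and spliceosomal RNA, box H/ACA snoRNAs (SNORA) guide pseudouridylation, and scaRNAs do either in Cajal bodies, on spliceosomal RNA. A few, such as U3 (SNORD3A) and U17 (SNORA73B), take part in cutting the ribosomal precursor instead. Since these RNAs have no poly(A) tail and these libraries were made by reverse transcription of mRNA, a value cannot be told apart between mature RNA and precursor that holds it.

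Depth, recovered from the FPKM values, ran from 31725014 fragments in Mito-Lipo 2 to 41330654 in Gilteritinib 1. The values of all 175 members gave whole fragments in every library within a tolerance of 0.1 of a fragment. The member without a GENCODE position was given the shortest length that made its values whole, so it passed by construction. The 8 myeloid markers examined, FLT3 and LYZ among them, lay between 13.3 and 1333 FPKM in every library, while the 7 markers of other cell types lay between 0 and 2.85.

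The sequences shown are of members on which the results below turn. SNORA73B, SNORA53 and SNORD17 are members whose level differed by replicate number, and SNORD6 is one whose means by replicate number were close. SCARNA18 and SCARNA21 are among the highest scaRNAs. They are GENCODE release 29 transcripts, written 5′ to 3′ as DNA on GRCh38. Capitals mark ACA in the SNORA and SCARNA sequences, TGAG in SCARNA18, and the C box TGATGA and D box CTGA in the SNORD sequences. TGAG has the letters of the Cajal body localisation motif, but it was matched by letters alone. Whether it acts as that motif in SCARNA18 was not tested, and TGAG also occurs, unmarked, in SNORA53 and SNORD17.
SNORA73B, plus strand of chr1:28508559-28508762: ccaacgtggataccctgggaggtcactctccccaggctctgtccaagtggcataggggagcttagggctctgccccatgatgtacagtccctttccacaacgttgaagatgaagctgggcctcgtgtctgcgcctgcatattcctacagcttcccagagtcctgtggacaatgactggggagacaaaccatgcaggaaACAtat
SNORA53, plus strand of chr12:98599635-98599883: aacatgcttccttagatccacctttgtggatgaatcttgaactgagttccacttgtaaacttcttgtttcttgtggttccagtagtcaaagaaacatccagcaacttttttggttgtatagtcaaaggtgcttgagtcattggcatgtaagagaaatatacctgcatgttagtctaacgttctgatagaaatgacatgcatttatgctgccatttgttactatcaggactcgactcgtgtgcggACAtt
SNORD17, minus strand of chr20:17962710-17962946: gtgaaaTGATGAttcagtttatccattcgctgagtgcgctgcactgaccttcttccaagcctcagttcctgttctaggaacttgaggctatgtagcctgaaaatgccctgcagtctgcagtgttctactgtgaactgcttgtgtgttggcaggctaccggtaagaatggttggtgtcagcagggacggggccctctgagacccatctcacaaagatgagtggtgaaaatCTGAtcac
SNORD6, minus strand of chr11:93731502-93731574: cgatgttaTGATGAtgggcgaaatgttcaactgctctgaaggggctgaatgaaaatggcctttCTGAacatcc
SCARNA18, minus strand of chr5:83064204-83064337: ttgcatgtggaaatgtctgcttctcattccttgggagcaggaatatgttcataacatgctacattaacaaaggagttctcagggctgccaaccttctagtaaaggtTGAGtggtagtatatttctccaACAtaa
SCARNA21, plus strand of chr17:7906122-7906260: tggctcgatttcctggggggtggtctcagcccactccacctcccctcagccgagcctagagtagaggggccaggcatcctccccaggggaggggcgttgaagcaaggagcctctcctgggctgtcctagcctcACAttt

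The boxes that define each class were counted on the transcript strand, in each member with a GENCODE sequence. TGATGA in the first 25 bases together with CTGA in the last 20 was found in 45 of 77 SNORD members (58.4%), against 0.0638% of 4701 other small RNA genes of 60 to 220 bases. ACA with exactly 3 bases after it was found in 61 of 84 SNORA members (72.6%) and 8 of 13 SCARNA members, against 1.06% of the other small RNAs. SNORA53 has no ACA at that distance, and the window was widened to the last 8 bases after such cases were seen. The wider window held ACA in 72 of 84 SNORA members (85.7%) and in 7.19% of the other small RNAs, so the gain came with a higher background. TGAG anywhere in the sequence was not limited to scaRNAs and occurred in 8 of 13 SCARNA members (61.5%), 60 of 77 SNORD members (77.9%), 35 of 84 SNORA members (41.7%) and 35.1% of the other small RNAs.

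Of the 175 members, 174 had a position in GENCODE 29. In 136 the gene lay in an intron of another gene on the same strand, in 9 it met an exon on the same strand, in 21 another gene lay on the opposite strand only, and 8 lay outside other genes. The library kit does not mark strand, so reads of members and of genes overlapping them cannot be told apart. The table held a host for 143 members, 118 hosts in all, and 119 of the 143 were in protein-coding hosts. Annotated length ran from 64 to 791 bases, with medians of 135 for SNORA, 85 for SNORD and 139 for SCARNA. A run of 50 bases was shared with another gene by 29 members, whose values are uncertain where reads could be split between copies.

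Levels spread widely within each class. Mean FPKM over the 12 libraries ran from 0.491 to 274 in SNORA with a median of 5.51, from 0.596 to 228 in SNORD with a median of 7.93, and from 1.09 to 31.8 in SCARNA with a median of 5.51. The middle member had 26.9 fragments on average, and 40 members had under 10. Across the 700 sets of 1 member in 1 condition, the SD between libraries was below the counting error in 195. Just inside the rule were SNORA70 (ENSG00000206958) and SNORD90, each with a third-highest FPKM of 1.02. Just outside were SNORD66 at 0.979 and SNORA54 at 0.939.

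SNORA73B (U17b, intronic in SNHG3) was the highest member. It measured 486, 189 and 189 FPKM in DMSO libraries 1 to 3, 555, 223 and 203 in gilteritinib, 317, 185 and 209 in Mito-Lipo, and 373, 193 and 170 in Com. The library numbered 1 was the highest in every condition, and the libraries numbered 1 did not overlap the other 8. SNORA73B shares a 50-base run with SNORA73A.

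SNORD3A (U3, which acts in the earliest cuts of the ribosomal precursor) measured 396, 151 and 124 FPKM in DMSO, 543, 165 and 194 in gilteritinib, 152, 144 and 167 in Mito-Lipo, and 352, 196 and 157 in Com. Libraries numbered 1 stood above the others in 3 conditions, whereas in Mito-Lipo the 3 libraries were close, at 154 ± 11.9 FPKM (SD, n = 3). The gene model of 699 bases is longer than mature U3 and shares sequence with the other SNORD3 copies, so both its level per length and its division among copies are uncertain. SNORD3B-1, one of those copies, showed no such excess. It measured 39.1, 39.7 and 40.5 FPKM in DMSO, 47.8, 47.2 and 49.0 in gilteritinib, 25.4, 41.8 and 45.1 in Mito-Lipo, and 26.4, 45.0 and 45.9 in Com, so the library numbered 1 was the lowest in Mito-Lipo and Com.

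**Figure D1:**
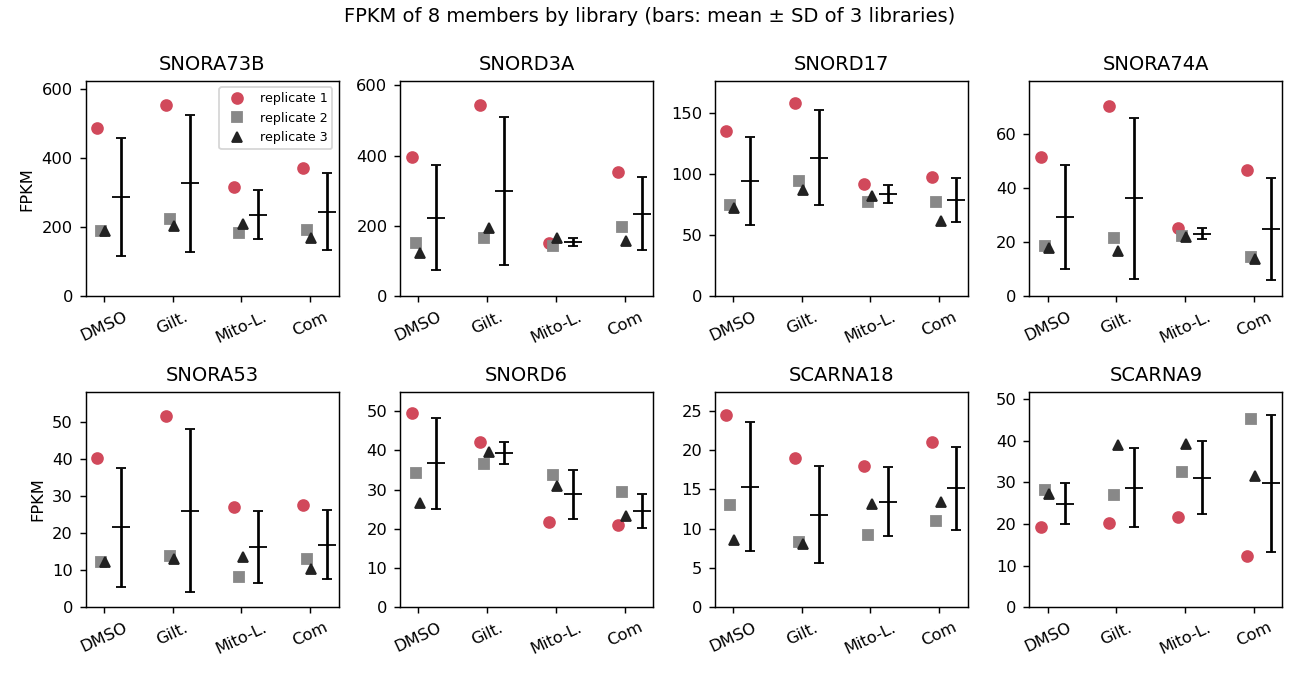
FPKM (y axis, linear from 0) of 8 members in the 12 libraries by condition (x axis), with a marker for each replicate number and bars for mean ± SD of 3 libraries. SNORA73B in libraries numbered 1 lies between 317 and 555 FPKM, above the other libraries, while SCARNA9 has its lowest value in each condition in the library numbered 1.

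The scaRNAs were lower. SCARNA7 (intronic in KPNA4) measured 35.9 ± 8.59 FPKM in DMSO and 26.8 ± 5.42 in Com, and SCARNA21 (in CHD3) 25.1 ± 4.04 and 20.5 ± 1.83 (SD, n = 3 each). SCARNA9 (in CEP295) measured 24.8 ± 4.93 FPKM in DMSO and 29.7 ± 16.5 in Com. The ranges of DMSO and Com overlapped for all 3 of these scaRNAs. SCARNA5 was at 1.3 ± 0.63 FPKM in DMSO. SCARNA6 and SCARNA10 were under the rule, and SNORD118, SNORA73A, SCARNA2 and SCARNA13 were not analysed here.

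The summed FPKM of each class differed between conditions by less than the spread of DMSO libraries. SNORA members summed to 981 ± 308 FPKM in DMSO, 1076 ± 278 in gilteritinib, 964 ± 110 in Mito-Lipo and 898 ± 162 in Com (SD, n = 3 each). SNORD members summed to 1105 ± 335, 1260 ± 239, 1023 ± 59.5 and 1021 ± 114 FPKM in the same order, and SCARNA members to 150 ± 24.3, 144 ± 5.64, 148 ± 6.61 and 136 ± 13.0. The ratio to DMSO depended on the replicate number. For SNORD the ratio of Mito-Lipo to DMSO was 0.685 among libraries numbered 1 but 1.15 and 1.09 among those numbered 2 and 3, and for Com it was 0.748, 1.12 and 1.01. For SNORA the same ratios were 0.812, 1.15 and 1.10 for Mito-Lipo and 0.804, 1.06 and 0.955 for Com. Gilteritinib gave 1.03, 1.21 and 1.25 for SNORD. Each such ratio rests on 1 library a side and was not tested.

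Whether the drugs changed these RNAs was tested with limma on log2(FPKM + 1), a scale that understates changes of low genes, with p-values adjusted by Benjamini-Hochberg over all 18574 genes tested. No member passed an adjusted p of 0.05 in any of the 6 comparisons between conditions, and limma's voom on the recovered fragments also called 0 in each. In the main limma fit 0% of all genes tested passed in 5 of these comparisons and 0.00538% in Com against DMSO. There was thus little to read in its count of members. At an unadjusted p under 0.05, Mito-Lipo against DMSO had 9 members higher and 1 lower (background 4.95% and 2.94%), gilteritinib against DMSO 4 and 1 (0.565% and 1.3%), and Com against DMSO 1 and 11 (0.829% and 0.84%). Com against gilteritinib had 2 higher and 15 lower (0.802% and 0.829%), Com against Mito-Lipo 0 and 10 (1.41% and 4.12%), and gilteritinib against Mito-Lipo 3 and 10 (2.96% and 6.56%). The median log2 fold change of members in Com against DMSO was -0.07, beside -0.01 over all genes. In Com against gilteritinib it was -0.16, beside 0.02.

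The members with the smallest p against DMSO show the sizes involved. SNORD38C measured 5.23, 3.61 and 3.52 FPKM in DMSO and 8.27, 8.68 and 7.25 in Mito-Lipo. The groups did not overlap, with a log2 fold change of 0.84 ± 0.25 (SE) and a limma adjusted p of 0.492. SNORD38C had only 8 to 23 fragments a library. With libraries numbered 2 and 3 alone, an alternative added after the data were seen, its log2 fold change was 0.97 with a limma adjusted p of 0.00853 in Mito-Lipo and 0.97 with 0.0343 in gilteritinib. That fit called 6.41% and 0.614% of all genes in these comparisons, and SNORD38C was the 1 member called in each. SNORA7B measured 4.39, 5.97 and 4.58 FPKM in DMSO and 7.31, 6.84 and 8.17 in gilteritinib, with a log2 fold change of 0.50 ± 0.17 (limma adjusted p = 1.0). These groups did not overlap either, but SNORA7B shares sequence with SNORA7A and RPL32. SNORD92, in WDR43, measured 9.47, 8.46 and 7.49 FPKM in DMSO and 12.8, 12.8 and 12.7 in gilteritinib. SNORA70 (ENSG00000253042) measured 12.2, 11.0 and 13.6 FPKM in DMSO and 9.88, 9.44 and 8.81 in Com, again without overlap, with a log2 fold change of -0.35 ± 0.10. Neither SNORD92 nor this SNORA70 passed the limma test after adjustment. The members named here were picked for a small p, so a lack of overlap partly follows from that choice. The share of all genes without overlap was not counted. SNORD14 and another SNORA70 (ENSG00000276094) also had small p-values, on 0 to 6 and 0 to 5 fragments a library.

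**Figure D2:**
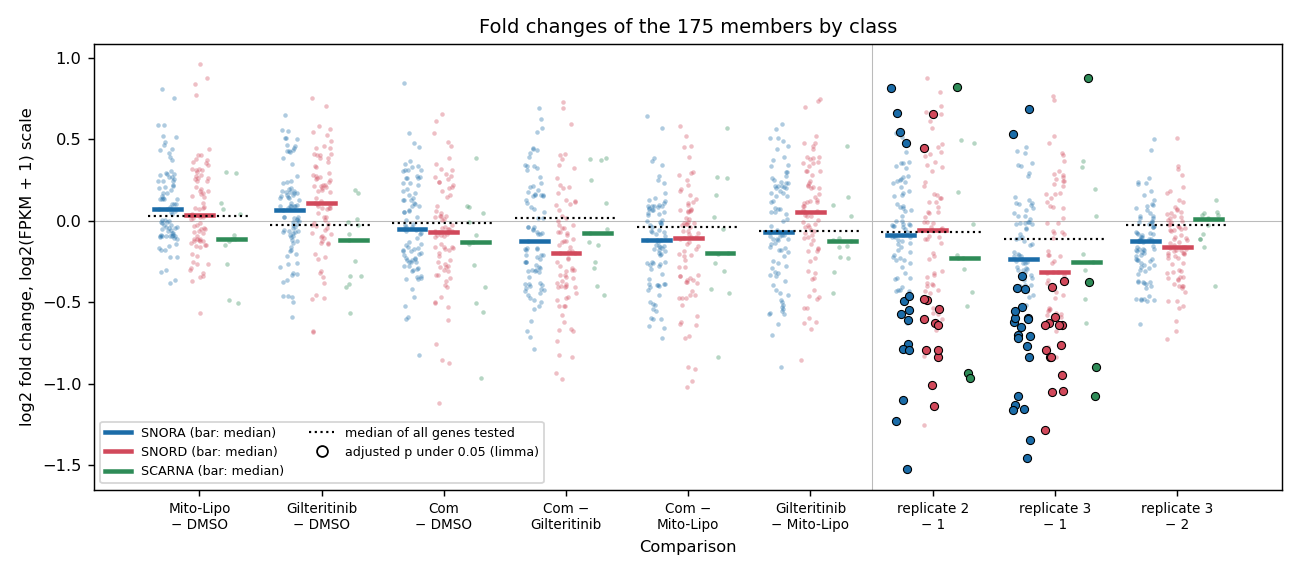
log2 fold change on the log2(FPKM + 1) scale (y axis) of the 175 members in each comparison (x axis), coloured by class, with bars for class medians and dotted lines for the median of all 18574 genes tested. Outlined points have a limma adjusted p under 0.05: none in the 6 comparisons between conditions, 31 in replicate 2 against 1, 42 in replicate 3 against 1 and none in replicate 3 against 2.

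Replicate numbers were compared across the 4 conditions, with condition as a covariate. Replicate 2 against 1 called 31 members, 7 higher and 24 lower, against a background of 26.7% of all genes (9.49% higher and 17.3% lower). Replicate 3 against 1 called 42, 3 higher and 39 lower, against 33.7% (9.45% and 24.3%). As shares these are 17.7% and 24.0% of members, below the background in both. Replicate 3 against 2 called 0, as among all genes (0%), and at an unadjusted p under 0.05 it had 1 higher and 18 lower (0.56% and 3.89%). Both comparisons with replicate 1 share its 4 libraries. SNORD90, called lower in both, and SNORA70 (ENSG00000206958), called lower in replicate 3 against 1, reached an FPKM of 1 only in libraries numbered 1. The rule that made them members thus favoured this direction, so their calls are no support for it. The same filter was applied to all genes tested. The split depended on scaling: median-ratio scaling, which moved the median of all genes in replicate 3 against 1 from -0.11 to 0.01, gave 16 higher and 20 lower of 172 members in replicate 2 against 1, and 7 higher and 25 lower in replicate 3 against 1. Among all genes that scaling called 15.3% higher and 9.94% lower, and 18.7% higher and 12.5% lower, in the same order. With no filter on low values the counts were 14 and 22 members, a change of over 1.5 times, beside 9.49% and 12.1% of all genes. It depended on DMSO replicate 1 too, without which the counts were 17 higher and 16 lower, and 11 higher and 24 lower, beside 8.37% higher and 14.3% lower, and 8.19% and 19.4%, of all genes.

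The members that were lower in replicates 2 and 3 included the highest ones. SNORA53 lies in SLC25A3 and meets an exon of another gene on the same strand, whose reads cannot be told apart from its own. It had a mean of 36.6 ± 11.7 FPKM in libraries numbered 1 and 11.8 ± 2.48 in those numbered 2 (SD, n = 4 each). The log2 fold change was -1.52 ± 0.17 (SE, limma adjusted p = 0.000857). It measured 40.2, 51.6, 27.0 and 27.5 FPKM in libraries numbered 1 of DMSO, gilteritinib, Mito-Lipo and Com, and at most 13.9 elsewhere. In the same comparison SNORA73B had a log2 fold change of -1.10 ± 0.12 (limma adjusted p = 0.000979). It was -1.22 ± 0.26 for SNORA74A (0.00979), -1.0 ± 0.27 for SNORD3A (0.0252) and -0.54 ± 0.12 for SNORD17 (0.0115). SNORA74A measured 51.6, 70.4, 25.4 and 46.7 FPKM in libraries numbered 1, and its Mito-Lipo libraries again lay close together, at 23.2 ± 1.94 FPKM. SCARNA18 was also lower, at -0.93 ± 0.16 (limma adjusted p = 0.00425).

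Other members had close means by replicate number or differed the opposite way. SCARNA9 was at 18.4 ± 4.11 FPKM in libraries numbered 1 and 33.2 ± 8.37 in those numbered 2, a log2 fold change of 0.82 ± 0.20 (limma adjusted p = 0.0193). In Com it measured 12.4, 45.3 and 31.5 FPKM. SNORA3B and SNORA84 were the other members called higher in replicate 3 against 1. SNORD6 measured 33.6 ± 14.4, 33.4 ± 2.98 and 30.1 ± 6.98 FPKM by replicate number, and SNORA74D, in the same host SNHG4 as SNORA74A, 44.4 ± 8.59, 49.2 ± 5.93 and 46.9 ± 8.33. SNORD13, which acts in small-subunit RNA maturation, measured 31.3 ± 11.3, 28.9 ± 1.75 and 25.2 ± 5.41. These means covered differences in opposite directions within conditions. For SNORD6, the library numbered 1 over the mean of the others was 1.63, 1.11, 0.674 and 0.799 in DMSO, gilteritinib, Mito-Lipo and Com. The same ratios were 1.86, 1.21, 0.972 and 0.672 for SNORD13 and 1.29, 0.726, 0.920 and 0.824 for SNORA74D. These ratios were not tested. In replicate 3 against 2, SNORA75 (ENSG00000212593) and SNORA68B had log2 fold changes of -0.63 and -0.49 without passing the test (limma adjusted p = 0.859 for each).

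A few members set the class sums. SNORA73B and SNORA12 held 46.2% of SNORA FPKM in Gilteritinib 1 and 23.9% in Mito-Lipo 2. The SNORA sum was 1221 ± 164 FPKM in libraries numbered 1 and 899 ± 75.9 in those numbered 2 (SD, n = 4), a ratio of 0.737, which became 0.914 without those members. For SNORD the ratio was 0.817, and 1.0 without SNORD3A and SNORD17, but in replicate 3 against 1 it was 0.746, and 0.898 without them. For SCARNA it was 0.971, and 0.817 without SCARNA7 and SCARNA9. In DMSO the library numbered 1 was the highest of 3 for 118 of 175 members (67.4%, against 54.7% of all genes). In gilteritinib it was for 77 (44.0%, against 44.8%), in Mito-Lipo for 68 (38.9%, against 52.8%) and in Com for 69 (39.4%, against 54.4%), so the share of members exceeded that of all genes in DMSO but not in the drug conditions.

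Members were also grouped by length, in bins set with results known. In replicate 2 against 1, 13 of 35 members of 141 to 800 bases were called lower, as were 7 of 81 of 101 to 140 bases and 4 of 59 of 60 to 100 bases, beside 17.3% of all genes, with median log2 fold changes of -0.36, -0.03 and -0.05. Those called higher were 1, 4 and 2, beside 9.49% of all genes. In replicate 3 against 1 the counts were 18, 14 and 7 lower and 1, 2 and 0 higher, beside 24.3% and 9.45%. The longest group also had more fragments, with a median of 63 against 25.3 and 24.1, and the part of depth in these counts was not tested.

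Members were also set beside their hosts. Over 141 members with a tested host, the Pearson correlation of member and host log2 fold changes ran from 0.00285 in gilteritinib against DMSO to 0.30 in replicate 3 against 1, as a description across genes that share libraries. SNHG14 held 5 members, of which SNORD116-17 was lower in replicate 2 than in replicate 1, with a log2 fold change of -0.48 (limma adjusted p = 0.00676), while its host's log2 fold change was -0.47. GNL3, KANSL2, NOP58, RPS12 and WDR43 held 3 each. Among the members in those hosts, SNORD70 in NOP58 alone was called in replicate 2 against 1, at 0.45 (limma adjusted p = 0.0450), and none in replicate 3 against 1. Of all genes, 26.7% and 33.7% were called in these comparisons.

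The proteins that carry and process these RNAs were taken from a list of 31 symbols, which held EXOSC10 also under its other name RRP6. Of these symbols, 28 were tested. With limma, 0 of these were called in each comparison between conditions, and at an unadjusted p under 0.05 the comparisons of Mito-Lipo, gilteritinib and Com with DMSO had 3, 1 and 0 lower and 0 higher, beside 2.94%, 1.3% and 0.84% of all genes lower. In replicate 2 against 1, 7 were called higher and 5 lower, and in replicate 3 against 1, 10 higher and 6 lower. The shares of all genes were 9.49% and 17.3%, and 9.45% and 24.3%. Of the 4 box H/ACA proteins, NHP2, NOP10 and GAR1 were higher in replicate 2 than in replicate 1, with log2 fold changes of 0.24, 0.48 and 0.54 (limma adjusted p = 0.0272, 0.0195 and 0.0226), and the pseudouridine synthase DKC1 was at 0.22 (0.0571). Among box C/D proteins, NOP56 was higher by 0.41 and SNU13 by 0.23, whereas the methyltransferase FBL was at -0.49 (limma adjusted p = 0.0107, 0.0142 and 0.0226). FBL had a mean of only 3.58 FPKM, against 73.6 for NOP56, 72.7 for NOP58 and 76.6 for SNU13. The reason for its low level was not tested.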

How the data were processed

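RNA was sequenced from 12 libraries of MV4-11 cells, 3 in each of 4 conditions. Per the labels, total RNA was taken with the miRNeasy kit, mRNA was reverse-transcribed and amplified by Geo-seq, and libraries were made with a transposase kit, which does not mark strand. The study's methods name TRIzol instead. The deposited values are FPKM per gene, computed by the authors. The authors' processing notes name Bowtie 0.12.9, Cufflinks 2.1.1, HTSeq, DESeq2 and the mouse build mm10, although all 43876 gene IDs are human. No count table was used. Symbols came from an ID table, and positions and sequences from GENCODE release 29 (GRCh38) by gene ID. The sequence of a further member is not reported here.

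Fragments were recovered from FPKM, gene length and depth. Of 18096 tested genes with a length, 6637 gave whole fragments in all 12 libraries within 0.1 of a fragment. For the others voom used rounded values that need not be counts, so its shares of all genes are less certain. Those shares are of the 18096 genes. Depth ran from 31725014 to 41330654 fragments, so a member's precision follows from its own fragment count. Counting errors cover counting only. The main test was limma 3.58.1 with a trend (R 4.3.3) on log2(FPKM + 1), over the 18574 genes that reached an FPKM of 1 in 3 or more libraries, adjusted by Benjamini-Hochberg with a threshold of 0.05. Conditions were fitted with 1 mean each, as the study states no block. Replicate numbers were fitted with condition as a covariate. The fit was tested on simulated data.

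Same-numbered libraries deviated together: their correlations after removing condition means were 0.165 to 0.657 over all 18 pairs. Over the members alone these ran from -0.027 to 0.611, and differently numbered pairs reached 0.434 over all genes. The numbers were therefore taken as pairing the libraries, from the data and not from the labels. The main fit between conditions did not use this pairing, which entered only as a block in alternative fits. Alternatives were another pseudocount, other filters, median-ratio scaling, no trend, the replicate block, leaving out each library, and limma's voom on recovered fragments. Voom was also fitted with the replicate block. The members and lists were chosen with earlier results of these data known, and the wider ACA window, the ratios within replicate numbers and the fits on replicates 2 and 3 alone were added after the data were seen.

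Named members were the 4 highest of each class, the 2 with the smallest p in each comparison with DMSO and each between replicate numbers, a fixed list of known members, the 2 genes on each side of the FPKM threshold, and members of hosts with 3 or more. SNORD72, SNORA3B and SNORA84 fall outside this rule and were named after their values were seen.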

Additional observations from a re-analysis of the deposited data

Results flagged for a closer look

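Among 84 sets of 4 libraries sharing a replicate number, 5 had a highest or lowest library set apart from the others by Dixon's test at the 95% level, and chance alone flags about 1 in 20 sets. SNORD90 was highest in Gilteritinib 1, at 3.05 FPKM, and lowest in Mito-Lipo 3, at 0 FPKM. SNORD17 was highest among libraries numbered 2 in Gilteritinib 2, at 94.6 FPKM. SNORA70 (ENSG00000276094) was highest among libraries numbered 2 in Mito-Lipo 2, at 0.995 FPKM, on at most 5 fragments a library. SCARNA21 was lowest among libraries numbered 3 in Com 3, at 18.7 FPKM.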

How the results depend on the processing

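Under the replicate block, 0 members were called in each of the 6 comparisons between conditions. Of all genes it called 0.0108% in Com against Mito-Lipo, 0.0269% in gilteritinib against Mito-Lipo and 0% in the other comparisons. On replicates 2 and 3 alone, 1 member was called in Mito-Lipo against DMSO (SNORD38C), 1 in gilteritinib against DMSO (SNORD38C) and 3 in Com against Mito-Lipo (SNORD72, SNORA74A and SNORA3B, all lower), beside 6.41%, 0.614% and 6.13% of all genes. In the main fit, an unadjusted p under 0.05 was reached by 10, 5 and 12 members in Mito-Lipo, gilteritinib and Com against DMSO. The shares of all genes were 7.90%, 1.86% and 1.67%. Com against gilteritinib, Com against Mito-Lipo and gilteritinib against Mito-Lipo had 17, 10 and 13, beside 1.63%, 5.53% and 9.52% of all genes. Replicate 2 against 1, 3 against 1 and 3 against 2 had 60, 57 and 19, beside 40.5%, 45.6% and 4.45%. As shares of members these were 34.3%, 32.6% and 10.9%. With no filter on low values, 14 members were called in replicate 2 against 1 and 22 in replicate 3 against 1 (9.49% and 12.1% of all genes). With voom on recovered fragments, these were 22 and 30 (30.2% and 36.2% of the 18096 genes with a length, many of them with rounded values). Leaving out 1 library gave 20 to 33 members in replicate 2 against 1, lowest without Gilteritinib replicate 2 (18.1% of all genes), and 26 to 43 in replicate 3 against 1, lowest without Gilteritinib replicate 3 (20% of all genes). The SNORA median log2 fold change in Com against DMSO ran from -0.15 to 0.10, positive without DMSO replicate 1, and the SCARNA median in Com against Mito-Lipo from -0.23 to 0.0796, positive without Mito-Lipo replicate 1. Median-ratio scaling moved the SNORA median in replicate 3 against 1 to -0.10. Without the 2 highest members, class ratios to replicate 1 were 0.914 and 0.809 for SNORA in replicates 2 and 3, 1.0 and 0.898 for SNORD, and 0.817 and 0.802 for SCARNA. The cause of these changes was not tested. Low fragment counts limit the precision of the 40 members under 10 fragments.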
